A study of Arabidopsis thaliana with 16 samples.

Results

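The genes described here are 10 components of the Arabidopsis cell cycle machinery. They were taken by locus identifier from the 28598 genes of the deposited RNAseq count table. No measured value entered this rule, but the genes and the lists below were chosen with earlier results of these data known. They are 6 D-type cyclin genes, CYCD1;1 (AT1G70210), CYCD2;1 (AT2G22490), CYCD3;1 (AT4G34160), CYCD3;2 (AT5G67260), CYCD3;3 (AT3G50070) and CYCD4;1 (AT5G65420), the mitotic cyclin gene CYCB1;1 (AT4G37490), and 3 cyclin-dependent kinase (CDK) genes, CDKA;1 (AT3G48750), CDKB1;1 (AT3G54180) and CDKB2;1 (AT1G76540). For short they are called below the D1, D2 and D4 genes, the D3 genes with their identifiers, the mitotic cyclin gene, and the A, B1 and B2 kinase genes. The dark-grown cells were in flasks wrapped in foil and had been adapted to darkness for 2 weeks with a subculture every 7 days, were sampled 16 h after the last of these, and 4 RNAseq libraries were made from them. The light-grown cells were kept in constant light, and 4 RNAseq libraries were made from them too. All 8 libraries came from suspension cultures of the Columbia ecotype, Col-0, that were derived from leaves and grown in a medium with 3% sucrose and 1.1 mg/L of the synthetic auxin 2,4-D, so auxin and sugar were supplied in both conditions. Every RNAseq label gives 16 h, in dark-grown and light-grown cells alike, and the paper's results give 16 h for its 8 cultures. The methods also name 5 days after subculture for light-grown cells without saying for which samples.

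D-type cyclins bind CDKA and are the cyclins through which plant cells read growth signals. Their kinase complexes phosphorylate the retinoblastoma-related protein RBR1, which releases E2F transcription factors and lets cells enter S phase, and CYCD3 genes are known to respond to cytokinin and sucrose. B-type cyclins and the plant-specific B-type kinases act later, at the G2 to M transition, and their transcripts accumulate between S and M phase, whereas CDKA transcripts are present throughout the cycle. The inhibitors of the KRP and SIAMESE families bind cyclin-CDK complexes and hold them inactive.

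Library totals ran from 29916585 to 32688689 counts in dark-grown cells and from 18363149 to 37813411 counts in light-grown cells, with Light-RNA4 the shallowest. A gene with 3 counts would lie between 0.0942 and 0.0994 CPM (a gene's share of the TMM-scaled library total, on the usual CPM scale) in dark-grown libraries and between 0.0779 and 0.159 CPM in light-grown libraries. The light-dependent gene RBCS1A, a small subunit of Rubisco, had between 1.13 and 8.89 CPM in the dark-grown libraries and between 179 and 343 CPM in the light-grown libraries, in the direction of the labels. Of the markers for cell types that a leaf-derived culture could hold, those of the guard cell lineage (SPCH, MUTE, FAMA), root hairs (EXPA7), phloem (APL), epidermis (ATML1) and meristems (STM, WOX5) had at most 16 counts in any library. The xylem markers IRX3 and XCP1 were highest in Dark-RNA2, at 1.79 and 4.56 CPM, and neither passed the test between conditions. The libraries are described as biological replicates from separate cultures, and the methods add that cultures were run in duplicate. In bulk RNA a smaller share of cycling cells and less transcript per cycling cell cannot be told apart.

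All 10 genes passed the filter on low counts, and none differed between dark-grown and light-grown cells at an edgeR adjusted p under 0.05. Among all 19129 genes tested, 10.0% passed that threshold, 3.69% with higher and 6.31% with lower levels in dark-grown cells. DESeq2 called 1 of the 10, AT3G50070, against 16.7% of all genes, and the likelihood ratio test of edgeR called 0, against 13.2%. The edgeR count was 1 without Dark-RNA2 (AT4G34160), against 14.8% of all genes, and 2 without Light-RNA4 (AT3G50070 and the mitotic cyclin gene), against 14.1%. It was 0 without any other single library. In the 4 libraries that the study pairs with MNase-seq it was 5, against 27.8% of all genes. With the replicate number as a block, which was not taken as a pairing, it was 2 (the mitotic cyclin and B2 kinase genes), against 11.6%. At an unadjusted edgeR p under 0.05 there were 4 of the 10, against 25.2% of all genes tested: the D1 gene, AT4G34160 and AT3G50070 with higher levels in dark-grown cells and the mitotic cyclin gene with lower levels. None of the 10 had libraries that separated fully by condition, against 16.6% of all genes. The log2 fold changes (dark over light) were above 0 for 5 genes and below 0 for 5, with a median of -0.01 beside 0.004 for all genes tested.

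**Figure D1:**
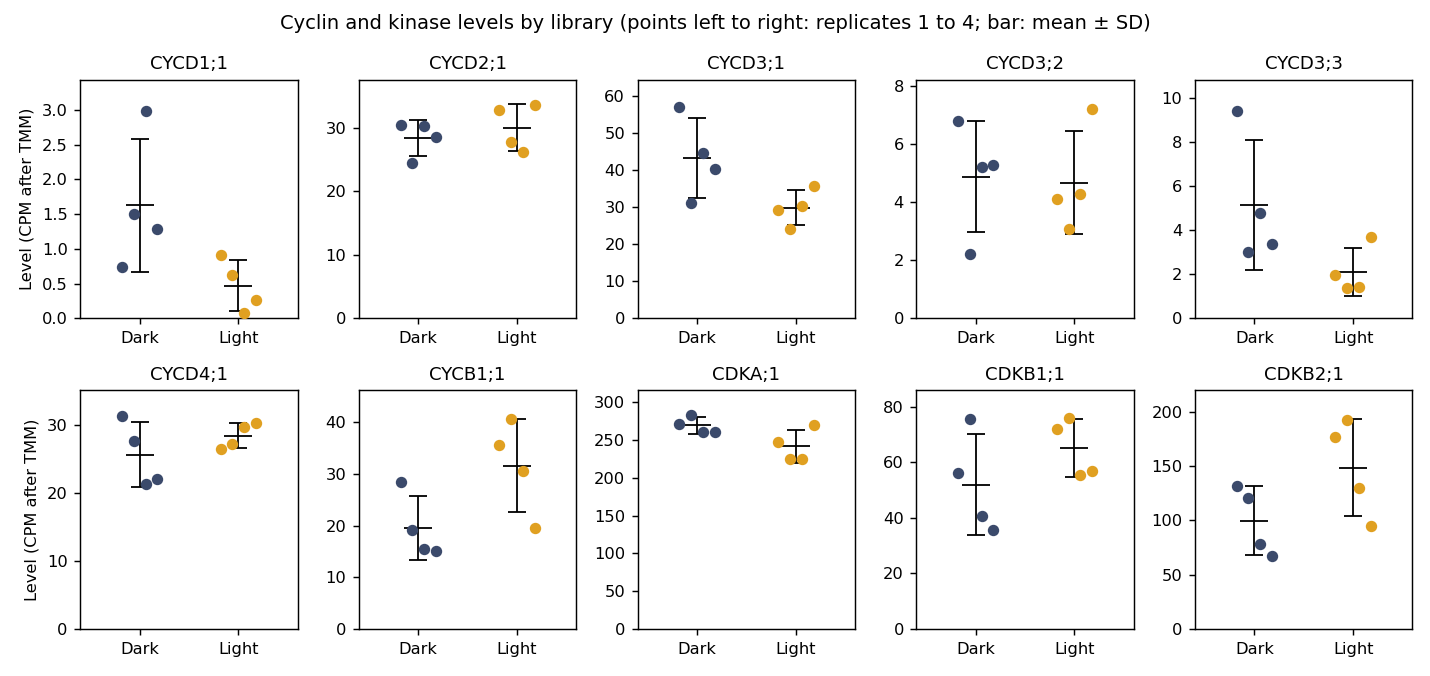
Level of each gene in CPM (vertical axes, each starting at 0) in 4 dark-grown libraries (left) and 4 light-grown libraries (right). Points from left to right are replicates 1 to 4, and the bar shows the mean with its SD. In every panel the points of the 2 conditions overlap, and AT3G50070 spans 3.03 to 9.44 CPM in dark-grown cells and 1.37 to 3.71 CPM in light-grown cells.

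The D3 cyclin genes were not alike in level or in their difference between conditions. CYCD3;1, the most abundant D-type cyclin transcript in dark-grown cells per length of exon, had 56.9, 31.1, 44.7 and 40.3 CPM in dark-grown replicates 1 to 4, against 29.1, 24.2, 30.3 and 35.8 CPM in light-grown replicates 1 to 4. Only Dark-RNA2 fell within the range of the light-grown libraries. The means were 43.3 ± 10.7 CPM in dark-grown cells and 29.8 ± 4.77 CPM in light-grown cells (SD, n = 4 each). In the fit its log2 fold change was 0.54 ± 0.19 (SE), with a 95% interval from 0.10 to 0.97, an edgeR adjusted p of 0.12 and an exact two-sided permutation p of 0.057, where 0.029 is the smallest value that 4 libraries against 4 can give. Without Dark-RNA2 the log2 fold change was 0.67 and passed the threshold (edgeR adjusted p = 0.0341), and without Dark-RNA1 it was 0.38 (edgeR adjusted p = 0.208). The gene model overlaps AT4G34150 on the same strand by 40 bases.

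CYCD3;3 had lower levels and a larger, less precise difference. Its levels were 9.44, 3.03, 4.77 and 3.38 CPM in dark-grown replicates 1 to 4, against 1.95, 1.37, 1.43 and 3.71 CPM in light-grown replicates 1 to 4. Dark-RNA1 stood highest, and Light-RNA4 lay above 2 of the dark-grown libraries. The means were 5.16 ± 2.95 CPM in dark-grown cells and 2.11 ± 1.10 CPM in light-grown cells (SD, n = 4 each), a fold of 2.46 with a 95% interval from 1.18 to 5.10. The log2 fold change was 1.30 ± 0.46 (SE) with an edgeR adjusted p of 0.121 and an exact permutation p of 0.086. It passed the threshold with DESeq2 (1.31, DESeq2 adjusted p = 0.0437) and in edgeR without Light-RNA4 (1.70, edgeR adjusted p = 0.0412). Without Dark-RNA1 it was 0.83 (edgeR adjusted p = 0.24).

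CYCD3;2 showed no difference that these libraries could resolve. It had 6.80, 2.21, 5.21 and 5.27 CPM in dark-grown replicates 1 to 4, against 4.10, 3.06, 4.29 and 7.21 CPM in light-grown replicates 1 to 4. Light-RNA4 was the highest and Dark-RNA2 the lowest of the 8 libraries, and the conditions overlapped over most of their range. The fit gave a log2 fold change of 0.07 ± 0.37 (SE), and its 95% interval ran from -0.78 to 0.92, so that changes of either sign remained within the error (edgeR adjusted p = 0.935, exact permutation p = 1). The gene model shares 220 bases with AT5G67265 on the opposite strand, and the use of strand in the counting is not given in the sources used here.

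The 3 D3 genes shared their highest and lowest libraries within each condition, and not the order of those between. In all 3, Dark-RNA1 was the highest and Dark-RNA2 the lowest of the dark-grown libraries, and Light-RNA4 was the highest and Light-RNA2 the lowest of the light-grown libraries. The part of the xylem markers, which were highest in Dark-RNA2, and of depth, which was lowest in Light-RNA4, in these levels was not tested.

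Of the other D-type cyclin genes, the D2 and D4 genes differed little between libraries and the D1 gene had few counts. The D2 gene, which encodes a partner of CDKA, had 30.4, 24.4, 30.2 and 28.5 CPM in dark-grown replicates 1 to 4, against 32.7, 27.7, 26.1 and 33.5 CPM in light-grown replicates 1 to 4. The D4 gene had 31.4, 27.7, 21.4 and 22.1 CPM in dark-grown replicates 1 to 4, against 26.5, 27.2, 29.7 and 30.3 CPM in light-grown replicates 1 to 4. Neither set of libraries separated by condition, and for the D4 gene the dark-grown libraries were both the highest and the lowest. The log2 fold change of the D2 gene was -0.08 ± 0.12 (SE), with a 95% interval from -0.35 to 0.19 (edgeR adjusted p = 0.737, exact permutation p = 0.54). That of the D4 gene was -0.14 ± 0.14 (SE), with a 95% interval from -0.46 to 0.17 (edgeR adjusted p = 0.575, exact permutation p = 0.34). These intervals correspond to folds from 0.784 to 1.14 for the D2 gene and from 0.728 to 1.12 for the D4 gene. Over the fits without a library the log2 fold changes ran from -0.14 to -0.01 for the D2 gene and from -0.26 to -0.06 for the D4 gene.

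The D1 gene was represented by 23, 46, 95 and 39 counts in dark-grown replicates 1 to 4, against 35, 21, 2 and 5 counts in light-grown replicates 1 to 4. In CPM these were 0.731, 1.50, 2.98 and 1.29 in dark-grown libraries, against 0.909, 0.624, 0.0818 and 0.265 in light-grown libraries. Dark-RNA1 lay below Light-RNA1, so the conditions overlapped, and Light-RNA3 was below the level of 3 counts. Light-RNA3 and Light-RNA4 had under 10 counts, so the gene passed the filter on low counts through the dark-grown libraries. The fold was 3.33 with a 95% interval from 1.14 to 9.73, and the log2 fold change of 1.74 ± 0.68 (SE) did not pass (edgeR adjusted p = 0.153, exact permutation p = 0.057). The gene model overlaps AT1G70209 on the opposite strand by 144 bases, which at these counts makes the level uncertain.

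**Figure D2:**
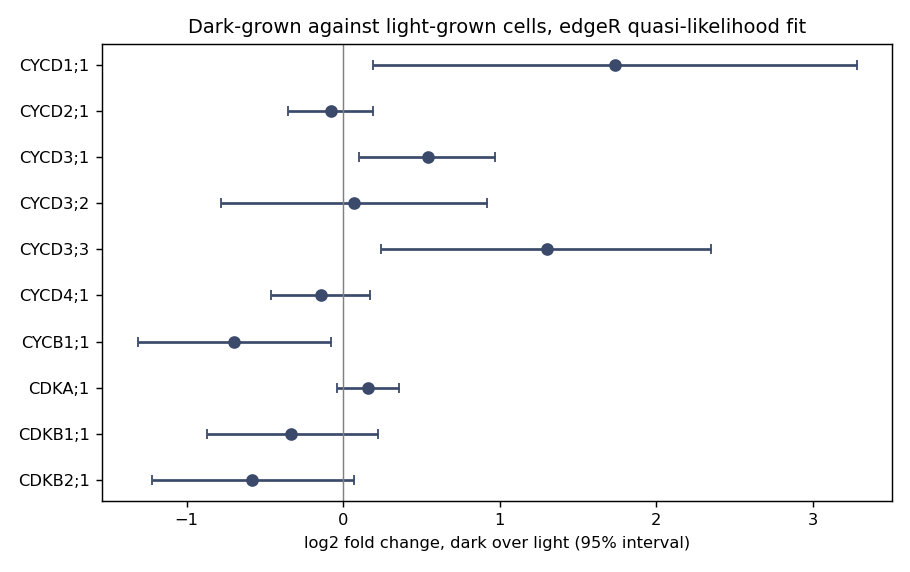
Log2 fold change of each gene, dark-grown over light-grown cells (horizontal axis), with the 95% interval from the edgeR quasi-likelihood fit to 8 libraries. The intervals of 4 genes leave out 0 before adjustment for the number of genes tested, and the interval of CYCD1;1 is the widest, from 0.19 to 3.28.

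The mitotic cyclin gene had lower levels in most dark-grown libraries. CYCB1;1, whose protein is degraded at the end of mitosis, had 28.4, 19.1, 15.5 and 15.0 CPM in dark-grown replicates 1 to 4, against 35.6, 40.6, 30.5 and 19.6 CPM in light-grown replicates 1 to 4. Light-RNA4 was the exception among light-grown libraries and lay beside Dark-RNA2, and Dark-RNA1 was close to Light-RNA3. The means were 19.5 ± 6.22 CPM in dark-grown cells and 31.6 ± 8.99 CPM in light-grown cells (SD, n = 4 each). Its log2 fold change was -0.70 ± 0.27 (SE), with a 95% interval from -1.31 to -0.08, an edgeR adjusted p of 0.152 and an exact permutation p of 0.057. Without Light-RNA4 it was -0.87 and passed the threshold (edgeR adjusted p = 0.0462).

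The B2 kinase gene followed the same libraries, and the B1 kinase gene did so in part. The B2 kinase gene, whose transcript peaks in G2 and M phase, had 132, 121, 78.4 and 67.4 CPM in dark-grown replicates 1 to 4, against 177, 193, 130 and 94.7 CPM in light-grown replicates 1 to 4. The B1 kinase gene had 56.0, 75.6, 40.5 and 35.5 CPM in dark-grown replicates 1 to 4, against 71.8, 75.9, 55.4 and 56.9 CPM in light-grown replicates 1 to 4. For the mitotic cyclin gene and both B kinase genes Light-RNA2 was the highest of the 8 libraries and Dark-RNA4 the lowest. For the B1 kinase gene, however, Dark-RNA2 nearly equalled Light-RNA2 (75.6 and 75.9 CPM), and Light-RNA3 was the lowest light-grown library. The log2 fold change of the B2 kinase gene was -0.58 ± 0.28 (SE), with a 95% interval from -1.22 to 0.07 (edgeR adjusted p = 0.25, exact permutation p = 0.14). That of the B1 kinase gene was -0.33 ± 0.24 (SE), with a 95% interval from -0.87 to 0.22 (edgeR adjusted p = 0.451, exact permutation p = 0.26). For the B1 kinase gene it was -0.56 without Dark-RNA2 and -0.18 without Dark-RNA4, neither past the threshold. Both gene models overlap a neighbour on the opposite strand at their ends, by 71 bases for the B1 and 44 bases for the B2 kinase gene.

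The A kinase gene, which encodes the central kinase of both main transitions of the cycle, was the most abundant and the least variable of the 10. It had 272, 284, 261 and 261 CPM in dark-grown replicates 1 to 4, against 248, 225, 225 and 270 CPM in light-grown replicates 1 to 4. The highest and lowest dark-grown libraries differed 1.09-fold and the light-grown ones 1.20-fold, and Light-RNA4 lay inside the dark-grown range. Its log2 fold change was 0.16 ± 0.09 (SE), with a 95% interval from -0.04 to 0.36 (edgeR adjusted p = 0.31, exact permutation p = 0.086). The interval corresponds to folds from 0.972 to 1.28.

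The spread between libraries of a condition set how small a difference could be resolved for each gene. The within-condition SD of log2 CPM was 0.10 for the A kinase gene, which was lower than in all but 5.95% of genes tested. It was 0.16 and 0.20 for the D2 and D4 genes, below the median of 0.256 over all genes tested. The mitotic cyclin gene and the B2 kinase gene had SDs of 0.44 and 0.47, at percentiles 72.9 and 74.9 among genes tested. The widest spreads were those of the low transcripts, 0.61 for AT5G67260, 0.69 for AT3G50070 and 1.02 for the D1 gene, at percentiles 82.6, 85.7 and 93.8.

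Levels between genes were compared as CPM per kb of exon. In dark-grown cells the A kinase gene was first, at 180 ± 7.32 CPM per kb, followed by the B2 kinase gene at 72.9 ± 23.1 and the B1 kinase gene at 37.6 ± 13.1 (SD, n = 4 each). The D-type genes AT4G34160, D2 and D4 came next, at 23.1 ± 5.72, 16.3 ± 1.6 and 12.7 ± 2.36 CPM per kb in dark-grown cells, with the mitotic cyclin gene at 12 ± 3.81. AT3G50070 and AT5G67260 had 3.58 ± 2.05 and 2.90 ± 1.14 CPM per kb in dark-grown cells, and the D1 gene 0.649 ± 0.383. Among neighbours in this order the library ranges were separate only between the A and B2 kinase genes, between the mitotic cyclin gene and AT3G50070, and between AT5G67260 and the D1 gene.

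In light-grown cells the A, B2 and B1 kinase genes were again the most abundant, at 161 ± 14.4, 109 ± 32.8 and 47.1 ± 7.52 CPM per kb, and here their library ranges did not overlap. The mitotic cyclin gene came next at 19.4 ± 5.51 CPM per kb, above the D2 gene at 17.2 ± 2.10, AT4G34160 at 15.9 ± 2.54 and the D4 gene at 14.1 ± 0.919, and these 4 neighbours overlapped in range. AT5G67260 at 2.77 ± 1.06 and AT3G50070 at 1.47 ± 0.761 CPM per kb overlapped each other and were separate from the D4 gene above them and from the D1 gene at 0.188 ± 0.147 below (SD, n = 4 each).

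Ratios of counts between genes of the same library do not depend on how libraries are scaled, and they are described here with no test. The ratio of AT5G67260 to AT3G50070 was 0.721, 0.731, 1.09 and 1.56 in dark-grown replicates 1 to 4, against 2.11, 2.24, 3.00 and 1.94 in light-grown replicates 1 to 4. It was the only one of the 6 ratios examined in which the conditions did not overlap. On the log2 scale its mean was -0.04 ± 0.53 in dark-grown cells and 1.20 ± 0.27 in light-grown cells (SD, n = 4 each), a difference of -1.23. Leaving out single libraries moved that difference between -1.46 and -1.09. How often the ratios of other gene pairs separate by condition was not examined, and 16.6% of single genes tested had no overlap. The ratio of AT4G34160 to AT3G50070 was 6.03, 10.3, 9.37 and 11.9 in dark-grown replicates 1 to 4, against 14.9, 17.7, 21.1 and 9.64 in light-grown replicates 1 to 4, and overlapped through Light-RNA4.

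The mitotic cyclin gene and the B2 kinase gene each had a lower ratio to the A kinase gene in most dark-grown libraries. The log2 ratio of the mitotic cyclin gene to the A kinase gene was -3.26, -3.89, -4.08 and -4.12 in dark-grown replicates 1 to 4, against -2.80, -2.47, -2.88 and -3.79 in light-grown replicates 1 to 4. For the B2 kinase gene it was -1.05, -1.23, -1.74 and -1.95 in dark-grown replicates 1 to 4, against -0.48, -0.22, -0.80 and -1.51 in light-grown replicates 1 to 4. Both overlapped, with Light-RNA4 inside the range of the dark-grown libraries. The mean difference on the log2 scale was -0.85 for the mitotic cyclin gene, -0.74 for the B2 kinase gene and -0.54 for the B1 kinase gene. The D2 to D4 ratio had a mean of 0.16 ± 0.32 in dark-grown cells and 0.07 ± 0.21 in light-grown cells on the log2 scale (SD, n = 4 each).

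**Figure D3:**
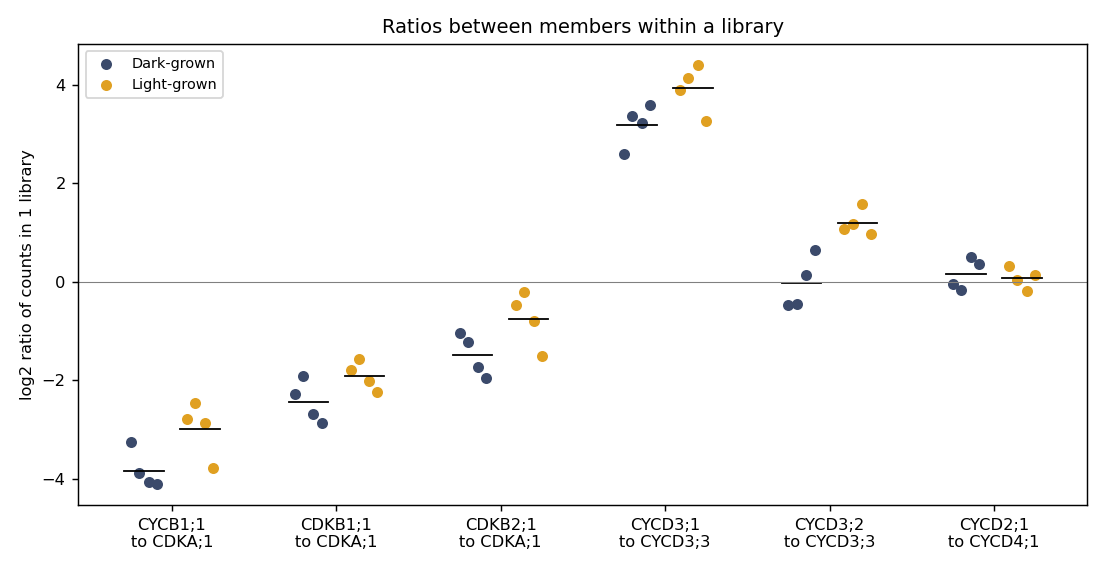
Log2 ratio of counts of gene pairs within each library (vertical axis), with dark-grown libraries left of light-grown libraries, in replicate order, with the mean of each condition as a bar. The CYCD3;2 to CYCD3;3 pair has separate conditions, from -0.47 to 0.64 in dark-grown cells and from 0.96 to 1.58 in light-grown cells, and the other pairs overlap.

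The wider B-type cyclin and G2 and M phase lists moved with the mitotic cyclin gene from library to library. All 8 other B-type cyclin genes were tested, none passed the edgeR threshold and 4 had an unadjusted p under 0.05, against 25.2% of all genes tested. DESeq2 called 2, against 16.7% of all genes. Their log2 fold changes were all below 0, from -0.90 to -0.58, with a median of -0.80 beside 0.004 for all genes. The smallest p among them was that of CYCB3;1, with 17.5, 13.0, 11.2 and 9.25 CPM in dark-grown replicates 1 to 4, against 25.0, 29.4, 20.9 and 13.3 CPM in light-grown replicates 1 to 4 (log2 fold change -0.80 ± 0.27 (SE), edgeR adjusted p = 0.105). Of the 11 G2 and M phase genes, which include Aurora kinases, cytokinesis proteins and CDC20 activators, none passed in edgeR, 5 had an unadjusted p under 0.05, DESeq2 called 2, and the median log2 fold change was -0.69. The Aurora kinase gene AUR3 came first among them, at 17.8, 16.2, 11.7 and 8.85 CPM in dark-grown replicates 1 to 4, against 30.9, 31.0, 21 and 14.8 CPM in light-grown replicates 1 to 4 (log2 fold change -0.84 ± 0.29 (SE), edgeR adjusted p = 0.115).

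Each of these genes overlapped between the conditions, with Dark-RNA1 the highest of the dark-grown libraries for 8 of 8 B-type cyclin genes and 10 of 11 G2 and M phase genes. Light-RNA2 was the highest of all libraries for 8 of 8 B-type cyclin genes and 11 of 11 G2 and M phase genes, and Dark-RNA4 was the lowest for 7 of 8 and 10 of 11. Light-RNA4 was the lowest of the light-grown libraries for 8 of 8 and 11 of 11, and it was also the shallowest. Without Dark-RNA1, edgeR called 3 of the 8 B-type cyclin genes and 3 of the 11 G2 and M phase genes, against 10.3% of all genes. Without Light-RNA4 it called 2 and 1 of them, against 14.1% of all genes. All of these were lower in dark-grown cells. In the 4 libraries that the study pairs with MNase-seq, which leave out Dark-RNA1, Dark-RNA2, Light-RNA1 and Light-RNA4, edgeR called 8 of 8 and 10 of 11, all lower in dark-grown cells, with medians of -1.56 and -1.46, against 27.8% of all genes. That fit had 2 libraries per condition. It kept Light-RNA2, the highest library of these genes, and Dark-RNA4, the lowest for most. It left out the libraries through which the conditions overlapped most, so its calls are no separate support. The part of depth in these levels was not tested.

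**Figure D4:**
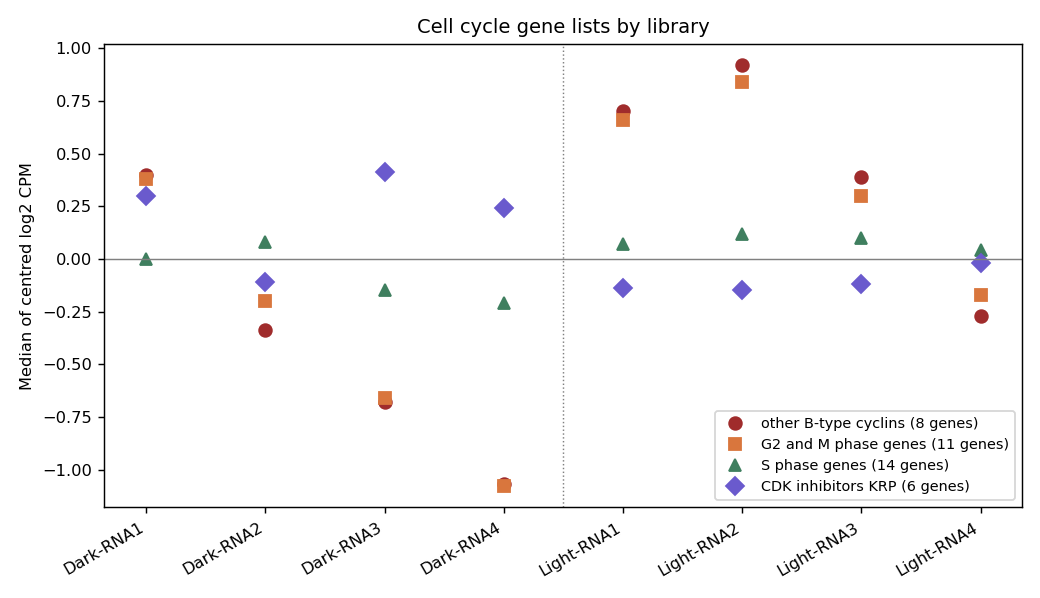
Median over the genes of each list of log2 CPM centred on the gene's mean over the 8 libraries (vertical axis), by library. Other B-type cyclins and G2 and M phase genes lie together in every library, at -1.07 and -1.08 in Dark-RNA4 and 0.92 and 0.84 in Light-RNA2, while S phase genes stay between -0.21 and 0.12.

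The remaining lists of cyclins, kinases and inhibitors had 1 gene past the threshold. Over all genes tested, 25.2% had an unadjusted p under 0.05, DESeq2 called 16.7%, and the fits without a library called 4.97% to 14.8%. Leaving out single libraries added at most 1 further call to any of these lists, among them 1 other D-type gene without Dark-RNA4, 1 A-type gene without Dark-RNA1 or Dark-RNA2, and 1 KRP gene without Dark-RNA2 or Light-RNA4. Of 4 other D-type cyclin genes 3 were tested, none passed in edgeR, 1 had an unadjusted p under 0.05 and DESeq2 called 1. The smallest p among them belonged to CYCD6;1, known from formative divisions in the root, with 5.94, 2.64, 1.16 and 0.563 CPM in dark-grown replicates 1 to 4, against 0.519, 0.475, 0.531 and 0.848 CPM in light-grown replicates 1 to 4 (log2 fold change 2.13 ± 0.69 (SE), edgeR adjusted p = 0.0916). Dark-RNA1 was the highest library and Dark-RNA4 lay among the light-grown libraries. The guard cell cyclin gene CYCD7;1 had 0 counts in every library. None of 10 A-type cyclin genes passed in edgeR, 4 had an unadjusted p under 0.05, and DESeq2 called 1 (median log2 fold change -0.28). Of these, CYCA3;1 had the smallest p, with libraries that did not overlap, at 13.9 to 17.3 CPM in dark-grown cells and 18.4 to 20.9 CPM in light-grown cells (edgeR adjusted p = 0.0619). It was 1 of 2 A-type genes without overlap, against 16.6% of all genes, and the other was higher in dark-grown cells. Among 10 other CDK and CDK partner genes none passed in edgeR, 2 had an unadjusted p under 0.05, and DESeq2 called 1 (median log2 fold change -0.28). First by p was the CDK-activating kinase gene CDKD;3, at -0.48 ± 0.15 (SE, log2 fold change, edgeR adjusted p = 0.0863).

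The inhibitor SIM (SIAMESE, AT5G04470), named for the multicellular leaf hairs of its mutant, had higher levels in dark-grown cells, at low counts. It had 31, 47, 37 and 38 counts in dark-grown replicates 1 to 4, against 5, 4, 12 and 5 counts in light-grown replicates 1 to 4. These were 0.985, 1.53, 1.16 and 1.26 CPM in dark-grown libraries, against 0.130, 0.119, 0.491 and 0.265 CPM in light-grown libraries, and the conditions did not overlap. Light-RNA3 alone among light-grown libraries had over 10 counts, so the gene passed the filter on low counts through the dark-grown libraries. In Light-RNA1 and Light-RNA2 its level was near that of 3 counts, 0.0779 and 0.0891 CPM. The log2 fold change was 2.33 ± 0.50 (SE, edgeR adjusted p = 0.0209), and the adjusted p ran from 0.0148 to 0.0666 over the fits that left out a library, above the threshold without Dark-RNA3, Dark-RNA4, Light-RNA1 or Light-RNA2. It was the 1 gene called of 6 tested, of 8 listed, in the SIM and SMR family, against 10.0% of all genes. The 6 tested of 7 KRP inhibitor genes all had log2 fold changes above 0, from 0.24 to 0.62. KRP7, the gene not tested, had 7, 10, 8 and 2 counts in dark-grown replicates 1 to 4. In light-grown replicates 1 to 4 it had 31, 57, 6 and 1 counts, highest in Light-RNA1 and Light-RNA2. None of the 6 tested genes passed in edgeR, 1 had an unadjusted p under 0.05 and DESeq2 called 1. KRP6 had the smallest p, at 9.73, 7.85, 10.3 and 8.78 CPM in dark-grown replicates 1 to 4, against 5.64, 5.23, 6.34 and 8.16 CPM in light-grown replicates 1 to 4 (log2 fold change 0.54 ± 0.17 (SE), edgeR adjusted p = 0.0941).

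Downstream of the D-type cyclins, the atypical E2F repressor gene DEL1 (AT3G48160), known to restrain endoreduplication, fell in dark-grown cells. Its levels were 34.8, 31.9, 30.7 and 28.1 CPM in dark-grown replicates 1 to 4, against 43.6, 46.6, 39.0 and 40.8 CPM in light-grown replicates 1 to 4, without overlap. The log2 fold change was -0.44 ± 0.10 (SE, edgeR adjusted p = 0.0258), and the adjusted p was above the threshold, at up to 0.0942, without Dark-RNA3, Dark-RNA4 or any of Light-RNA1 to Light-RNA3. It was the 1 gene called of the 9 in the RBR1 and E2F pathway, against 10.0% of all genes, and the list's median log2 fold change was 0.00. RBR1 itself had a log2 fold change of 0.00 ± 0.09 (SE, edgeR adjusted p = 0.984).

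None of the 14 tested of 15 S phase genes passed in edgeR. Of them, 2 had an unadjusted p under 0.05, against 25.2% of all genes, and DESeq2 called 0, against 16.7%. Of the 14, 12 had log2 fold changes below 0, and the median was -0.13. The replication clamp gene PCNA1 came first, at 66.9, 70.3, 50.8 and 51.3 CPM in dark-grown replicates 1 to 4, against 78.7, 73.9, 76.1 and 71.7 CPM in light-grown replicates 1 to 4 (log2 fold change -0.33 ± 0.12 (SE), edgeR adjusted p = 0.139). Without Dark-RNA1, 1 S phase gene passed, against 10.3% of all genes. The conditions did not overlap for PCNA1, by a gap between Dark-RNA2 and Light-RNA4. None of the 3 CCS52 activators of the anaphase-promoting complex passed in edgeR, none had an unadjusted p under 0.05, and DESeq2 called 0. CCS52B came first, at -0.54 ± 0.35 (SE, log2 fold change, edgeR adjusted p = 0.386).

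Of all genes tested, those nearest to the mitotic cyclin gene in their pattern over the 8 libraries were AT5G02370, CYCB3;1 and TOPII (AT3G23890), which encodes a topoisomerase. Their root mean square difference from it, in log2 CPM centred on each gene's mean, was 0.082, 0.085 and 0.087. Those nearest to AT4G34160 were AT5G26600, AT5G24870 and AT5G65480, with differences of 0.085, 0.087 and 0.098 on the same scale.

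Promoter letters are shown as sequence only, and whether promoter motifs bear on the level of any gene was not tested. The stretch from 250 bases before to 50 bases after each gene start was searched on both strands for AACGG, the core of the element that MYB3R factors bind at G2 and M phase genes, and for TTTCCCGC or TTTGGCGC, which E2F factors bind. AACGG was present in 24.7% of 27443 protein-coding promoters, and 4.89% held it more than once. It was present in 2 of the 10 genes, 3 times in the mitotic cyclin gene and once in AT4G34160, and in 7 of 8 other B-type cyclin and 8 of 11 G2 and M phase promoters. It was also present in 5 of 7 KRP promoters, whose tested genes had log2 fold changes above 0, in 5 of 10 promoters of other CDKs and CDK partners, in 4 of 10 A-type cyclin and in 3 of 15 S phase promoters. The 3 kinase genes had no match in this window. The E2F-type motifs were present in 1.21% of all promoters, in AT3G50070 alone among the 10 genes, and in 7 of 15 S phase promoters. The matches are shown 5′ to 3′ on the strand of the gene (RefSeq sequence of TAIR10.1), with the motif in capitals, which reads as CCGTT or GCGCCAAA where the motif lies on the other strand. A match is a description of these letters and no measurement of binding.
AT4G37490 at -168, chr4:17624460-17624488: agaataagtgggCCGTTgtgacttcaaaa
AT4G37490 at -61, chr4:17624353-17624381: aaaacaatcagaCCGTTggggttcattta
AT4G37490 at -13, chr4:17624305-17624333: tatttcttataaAACGGctcatcgtcctc
AT4G34160 at -145, chr4:16357264-16357292: ttaactttaagaAACGGaacttatcggcg
AT3G50070 at -104, chr3:18566920-18566949: aattttctcgcGCGCCAAAcatccgaatat

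The number before each position is the distance of the first motif base from the gene start. On the same build the D3 genes lie at chr4:16357421-16359565 on the forward strand (AT4G34160), chr5:26836139-26839597 on the forward strand (AT5G67260) and chr3:18565134-18566834 on the reverse strand (AT3G50070). The D1 gene lies at chr1:26439556-26443007 on the forward strand, the D2 gene at chr2:9553797-9556167 and the D4 gene at chr5:26141470-26144020, both on the reverse strand. The mitotic cyclin gene lies at chr4:17621886-17624308 on the reverse strand. The A and B1 kinase genes lie on the forward strand at chr3:18071454-18074641 and chr3:20059671-20061488, and the B2 kinase gene at chr1:28720328-28722550 on the reverse strand. No stretch of 50 exon bases of any of the 10 genes was found unchanged elsewhere in the genome.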

How the data were processed

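The authors aligned paired RNAseq reads of 50 bp to TAIR10 (Tophat2, Araport11 gene models), and the deposited values are raw HTSeq counts of each gene in each library. Versions, counting mode and strand are not given in the sources used here. A table of their own edgeR comparison (fold changes, p-values) was not used, and MNase-seq is not analysed here.

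Counts were fitted with edgeR 4.0.16 (R 4.3.3): TMM, filterByExpr (minimum count 10, total 15), robust quasi-likelihood test of 4 dark-grown against 4 light-grown libraries, Benjamini-Hochberg adjustment over 19129 genes, threshold 0.05. SE is the absolute log2 fold change over the root of F. Exact permutation tests used log2 of CPM plus 0.5. Floors of 3 counts cover counting error only. Levels per kb used exon lengths and sequence of the RefSeq TAIR10.1 annotation, whose nuclear chromosomes are those of TAIR10, and all 107 listed genes matched. DESeq2 1.42.0, other scalings, filters and designs were alternatives. The fit was checked on simulated data. Libraries of a condition differed by 23.7 to 132 times the sampling variance, so none differed from another by sampling error alone. Libraries from the same culture can also differ by more than sampling error, so whether any shared a culture was not tested. Python 3.11.15 and matplotlib 3.10.9 drew the figures.

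The genes and lists were chosen with earlier results of these data known. From each list the text names genes past the threshold, or else the gene with the smallest p, and for CYCD3;1 and CYCB1;1 the 3 genes nearest in pattern.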

Additional observations from a re-analysis of the deposited data

How the results depend on the processing

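The number of genes called was 1912, with 705 higher and 1207 lower in dark-grown cells. Leaving out each library in turn moved it between 962 and 2873, with 273 to 1204 higher and 689 to 1669 lower. DESeq2 called 3197 genes (1421 higher in dark-grown cells), and the 4 libraries that the study pairs with MNase-seq (Dark-RNA3, Dark-RNA4, Light-RNA2 and Light-RNA3) gave 5387 (2491 higher, 2896 lower).

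Of the 10 cyclin and kinase genes, 0 were called in the fit reported, 0 to 2 with a library left out, 1 with DESeq2, 2 with the replicate number as a block and 5 in the 4 libraries. With a library left out, CYCD3;1 passed without Dark-RNA2, and CYCD3;3 and CYCB1;1 passed without Light-RNA4. Those log2 fold changes ranged from 0.38 to 0.67, 0.83 to 1.70 and -0.93 to -0.55 over these fits. DESeq2 gave CYCD3;3 1.31 (adjusted p = 0.0437). The 4 libraries gave CYCD3;1 0.65, CYCD3;3 1.54, CYCB1;1 -1.22, CDKB1;1 -0.79 and CDKB2;1 -1.15. CDKB1;1 ran from -0.56 to -0.18 over the fits with a library left out. The direction turned for CYCD2;1 in the 4 libraries (0.13), and for CYCD3;2 without Dark-RNA1 (-0.13) or Light-RNA2 (-0.09), in a range from -0.13 to 0.35. None of these values of CYCD2;1 and CYCD3;2 passed the threshold. CYCD1;1, CYCD4;1 and CDKA;1 kept their direction and side of the threshold under every alternative that gave a value, and CYCD1;1 and SIM had none under the filter of 1 CPM.

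Of the other pathway genes, 2 were called (SIM and DEL1), 0 to 10 with a library left out, 4 without normalization factors, 1 under the filter of 1 CPM, 11 with DESeq2, 21 with the block and 37 in the 4 libraries. The shares of all genes called in those fits were 10.0%, 4.97% to 14.8%, 10.2%, 9.61%, 16.7%, 11.6% and 27.8%, in that order. The pathway genes tested in the fit reported were 3 other D-type, 10 A-type and 8 other B-type cyclin genes and 10 other CDK and partner genes. With them were 6 KRP, 6 SIM and SMR, 9 RBR1 and E2F, 14 S phase, 11 G2 and M phase and 3 CCS52 genes. SIM was 2.05 in the 4 libraries (edgeR adjusted p = 0.0655). The cause of these changes was not tested.

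The same-numbered libraries were not treated as pairs, since the labels do not state that they share a culture or day. Their deviations from the condition means correlated at -0.144, 0.582, -0.025 and 0.219 for replicates 1 to 4. These mixed values cannot decide whether the libraries pair. With the replicate block 2221 genes were called, 1607 of them also without it, and CYCB1;1 (-0.69, edgeR adjusted p = 0.0457) and CDKB2;1 (-0.58, edgeR adjusted p = 0.0149) passed. In that fit 6 of 8 other B-type cyclin genes and 8 of 11 G2 and M phase genes were called, all lower in dark-grown cells, against 11.6% of all genes.

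The depth of the low genes is limiting, since CYCD1;1 had 2 to 95 counts. In a search of 20 groups of 4 libraries no library stood apart by Dixon's 95% limit, where chance would give 1.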
